A study of Homo sapiens with 7 samples.

Results

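HIF1A and 9 genes that are widely used as readouts of the hypoxia response (CA9, VEGFA, NDRG1, ADM, EGLN1, EGLN3, ANKRD37, BNIP3 and BNIP3L) were followed in HCT116 H2B-GFP cells treated with bafilomycin A1. Members were taken by gene name, which gave 10 genes out of the 36337 gene names on the array. HCT116 is a human colon carcinoma cell line, and the H2B-GFP derivative expresses a green fluorescent histone. The cells had grown in 10 nM bafilomycin A1, an inhibitor of the vacuolar proton pump (V-ATPase) that blocks lysosomal acidification and autophagic degradation, for 30 h. There were 4 biological replicates of the treated line, each on 1 single-colour (Cy3) array. The 3 untreated samples of the same line were not analysed here, so the values describe treated cells and no effect of bafilomycin A1 was computed. In bulk RNA, more RNA per cell and more cells that express a gene cannot be told apart.

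HIF1A encodes the oxygen-regulated subunit of the transcription factor HIF-1. In oxygenated cells, prolyl hydroxylases of the EGLN family modify the protein, VHL binds it and the proteasome degrades it, so that control acts mainly on the protein and an mRNA level does not report HIF-1 activity. When oxygen or iron is short the protein accumulates, pairs with ARNT and binds the hypoxia response element, whose core reads ACGTG or GCGTG. Its targets include VEGFA and ADM, secreted factors that act on blood vessels, CA9, a membrane carbonic anhydrase, and BNIP3 and BNIP3L, which mark mitochondria for autophagy. The hydroxylases EGLN1 and EGLN3 are themselves targets and close a feedback loop. ANKRD37 is a small ankyrin repeat protein and a further HIF-1 target, and NDRG1 is a stress-response gene induced by hypoxia and by iron shortage.

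The sequences below show the promoters of CA9, the member that was not detected, and of ANKRD37 and BNIP3, which held the most matches to the element among the members, and the probes of the pair of genes whose probes cross an exon junction. RefSeq promoters (GRCh38.p14) were matched for 7 members, and the stretch of 250 bases before the annotated start was searched for ACGTG and GCGTG on either strand, that is also for CACGT and CACGC, with overlapping matches counted separately. A match was found for 6 members, counted by gene over any of its entries. Of all 35116 promoter entries, counted singly and not by gene, 43.2% held one in the same stretch. HIF1A had 2 entries, of which 1 held a match, 204 bases before the start. ADM had 1 match at 101 bases and EGLN1 1 match at 13 bases before the start, and EGLN3 had none in this window. In CA9 (chr9:35673678-35673927, plus strand) the only match lay 18 bases before the start. ANKRD37 (chr4:185396591-185396840, plus strand) had 3 matches, 2 of them on opposite strands of the palindrome CACGTG, between 162 and 143 bases before the start. BNIP3 (chr10:131981924-131982173, minus strand) had 6 matches, between 143 and 104 bases before the start. Matches are in capitals, and a match is a string of letters and not evidence of binding.
CA9 promoter: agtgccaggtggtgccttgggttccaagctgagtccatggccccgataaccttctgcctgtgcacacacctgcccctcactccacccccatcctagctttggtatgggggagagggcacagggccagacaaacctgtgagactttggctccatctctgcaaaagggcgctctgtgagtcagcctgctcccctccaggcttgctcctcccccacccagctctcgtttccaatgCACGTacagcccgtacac
ANKRD37 promoter: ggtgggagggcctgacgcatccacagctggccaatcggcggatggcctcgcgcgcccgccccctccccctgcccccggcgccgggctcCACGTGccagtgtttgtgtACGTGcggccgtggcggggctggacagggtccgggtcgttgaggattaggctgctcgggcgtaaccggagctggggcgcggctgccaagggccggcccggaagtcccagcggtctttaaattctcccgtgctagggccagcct
BNIP3 promoter: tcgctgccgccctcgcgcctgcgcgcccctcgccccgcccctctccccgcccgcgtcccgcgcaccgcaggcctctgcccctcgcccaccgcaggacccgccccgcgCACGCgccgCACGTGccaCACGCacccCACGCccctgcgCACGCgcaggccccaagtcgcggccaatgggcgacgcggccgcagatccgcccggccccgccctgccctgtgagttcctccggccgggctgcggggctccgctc

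Probes on this array are DNA strands of 60 bases, and the files place them on GRCh37. The CA9 probe spans chr9:35677817-35679204, which is 1328 bases more than its own length, so it crosses an exon junction and reads spliced RNA. One of the 2 VEGFA probes covers chr6:43746223-43746634, 352 bases more than its length. Their sequences are shown whole, in the direction of the transcript.
CA9 probe A_23_P157793: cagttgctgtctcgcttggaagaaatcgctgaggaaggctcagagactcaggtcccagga
VEGFA probe A_23_P70398: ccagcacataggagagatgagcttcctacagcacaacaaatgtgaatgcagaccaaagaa

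Across the whole array, between 55.6% and 60.4% of the 58717 non-control spots of a library were well above background, a flag of the scanner software. No spot was saturated (0 spots on any array). The software marked 2249 outlying spots on replicate 3 and 514 to 725 on the other arrays, and such spots were left out. Levels are given as the log2 background-subtracted signal minus the array's median over probes. A probe's level depends on its own sequence, so differences were read between arrays and not between probes or genes. Where a signal is called weak or low, it was set against background or the array median. Detection of a gene asked that 1 probe or more pass this flag on every array. Of 8 intestinal epithelial markers 7 were detected, among them EPCAM, CDH1, KRT18 and CDX2, whereas VIL1 had a signal above 0 on 1 array only. Of 9 leukocyte, endothelial and fibroblast markers 4 were detected. These were CD3E at 50.2 to 63.5 units of signal, CDH5 at 96.8 to 166.5, COL1A1 at 390 to 672, and PTPRC through 1 of its 5 probes at 84.0 to 127.8. PDGFRB was at or below 0 on all 4 arrays, and PECAM1, COL1A2 and DCN were not detected.

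Of the 10 members 9 were detected, where 52.5% of all gene names on the array were. CA9 was the exception. Among the detected members 2, HIF1A and EGLN3, differed by more than 1.4-fold between their highest and lowest array, against 46.4% of the 19083 detected genes. These are gene values. Single detected probes of VEGFA (A_24_P12401, 1.52-fold) and BNIP3L (A_23_P134925, 1.54-fold) also passed 1.4-fold. The median SD of the 9 detected members over the 4 arrays was 0.14 log2 units, and it was 0.21 over all detected genes. No member's gene-level value (0 of 9) had 1 array standing apart from the others by Dixon's ratio (the gap to the nearest array over the whole range, 2-sided, at its 95% critical value for 4 values), which 8.48% of detected genes did. Replicate 3 was the highest of the 4 arrays for 7 of the 9 detected members and for 48.5% of all detected genes. The 2 members that were not highest there were EGLN1 and EGLN3. The number over 1.4-fold depends on the scale: it was 1 after normexp and quantile normalization, with 15.5% of detected genes, and 4 with arrays centred on all probes, with 51.4%.

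**Figure D1:**
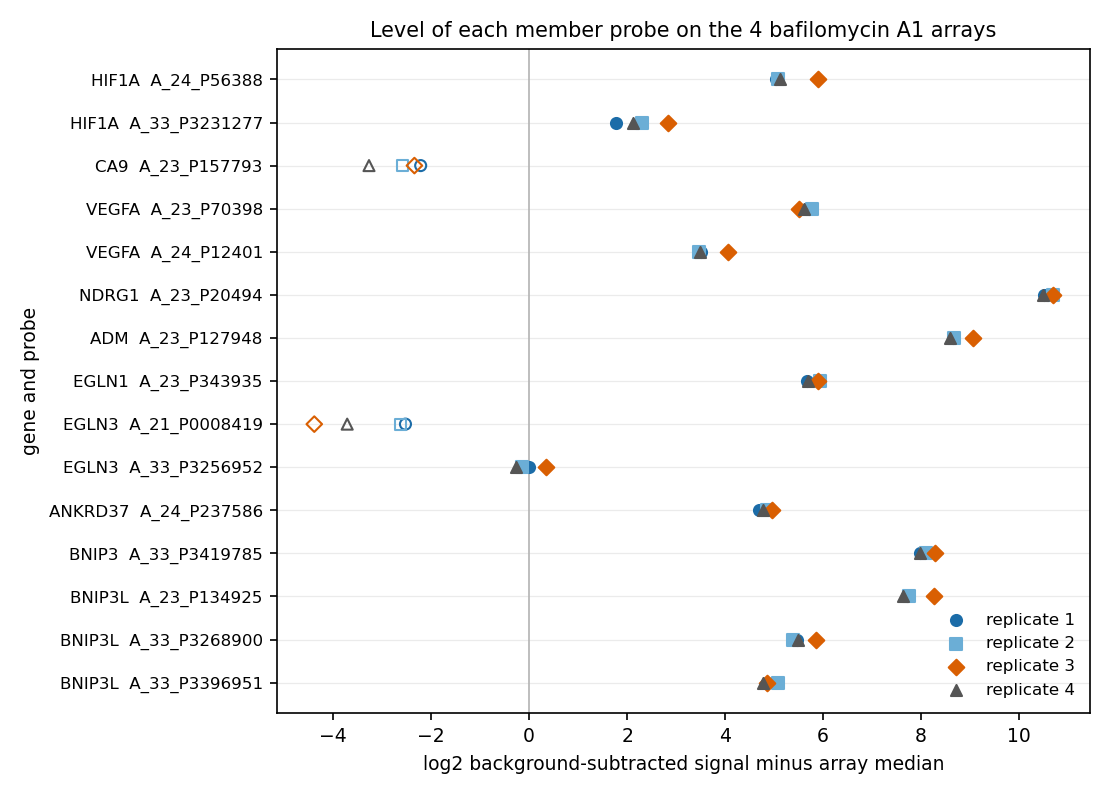
Level of each of the 15 member probes (rows) on the 4 bafilomycin A1 arrays, as log2 background-subtracted signal minus the array median (x axis, log2 units). Filled symbols are probes well above background on all 4 arrays and open symbols probes well above background on none. CA9 and 1 of the 2 EGLN3 probes lie below the array median with open symbols, and the HIF1A symbols of replicate 3 lie to the right of the other arrays for both probes.

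HIF1A was read by 2 probes, which lie 3373 bases apart on the plus strand of chromosome 14. Probe A_24_P56388 (chr14:62214845-62214904) was printed in 10 spots and gave levels of 5.04, 5.08, 5.90 and 5.13 on replicates 1 to 4. Probe A_33_P3231277 (chr14:62211472-62211531) gave 1.78, 2.30, 2.83 and 2.13. Both probes were highest on replicate 3, by 0.81 and 0.76 log2 units over the mean of the other arrays. As a gene, HIF1A lay at 3.41, 3.69, 4.36 and 3.63, a mean of 3.77 ± 0.41 (SD, n = 4), and its highest array exceeded its lowest 1.94-fold. Of all detected genes, 85.3% had a smaller SD. Without replicate 3 the SD of HIF1A was 0.15. Dixon's ratio was 0.71 for the gene and 0.90 for the probe with 10 spots, so that replicate 3 stood apart for that probe but not for the gene. After quantile normalization replicate 3 was still the highest for HIF1A, by 0.54.

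The repeated spots give the spread within an array. For HIF1A, the kept spots of A_24_P56388 ran from 4.75 to 5.41 on replicate 1, from 4.90 to 5.45 on replicate 2, from 5.58 to 6.26 on replicate 3 and from 4.93 to 5.47 on replicate 4. The lowest of the 9 kept spots on replicate 3 lay above the highest of the 29 kept spots on the other arrays. The median SD between spots of 1 array was 0.20 log2 units. With spots taken as independent this gives the mean of an array a standard error of 0.07, and the SD between the 4 array means was 0.41. ADM was the other member printed in 10 spots. There the median SD between spots of 1 array was 0.20, the standard error of an array mean 0.06 and the SD between array means 0.21. Its spots on replicate 3 (8.71 to 9.49) overlapped those of the other arrays, of which the highest was 9.04. Its median on replicate 3 was 8.92 and lay between 8.53 and 8.59 on the others. Its lowest spot was also higher on replicate 3, against 8.41 to 8.45 on the others. For both genes the ranges and standard errors mix spots of different positions, and spots were not paired by position between arrays. Overlap of the ranges is therefore no measure of the uncertainty in the difference between arrays. Spots of 1 array share the same labelled RNA and are not replicates of the treatment.

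**Figure D2:**
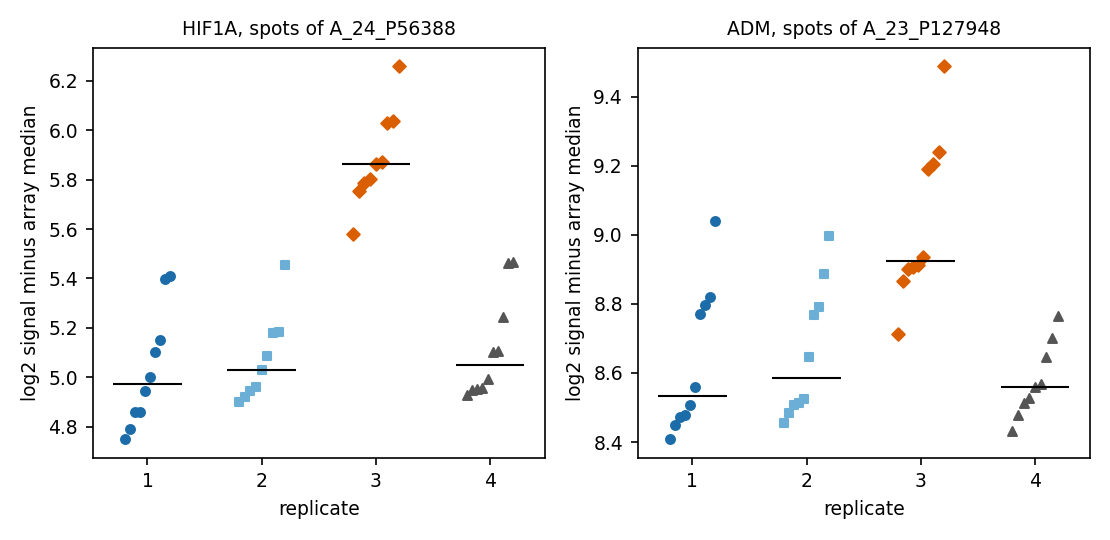
Single spots of the HIF1A and ADM probes that were printed 10 times, by replicate (x axis), as log2 signal minus the array median (y axis). Each symbol is a kept spot, spread sideways by rank, and black lines are medians. For HIF1A all spots of replicate 3 lie above every spot of the other arrays, and for ADM the ranges overlap. The plot does not link spots at the same position.

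The oxygen sensors gave a mixed picture. EGLN1, the main prolyl hydroxylase acting on HIF-1 alpha in oxygenated cells, was read by 1 probe (chr1:231502149-231502208, minus strand) at 5.66, 5.94, 5.90 and 5.70. It differed 1.21-fold between arrays (SD 0.14), with replicates 2 and 3 above replicates 1 and 4. EGLN3 was detected through probe A_33_P3256952 (chr14:34393422-34393481, minus strand), which read -0.01, -0.14, 0.34 and -0.27, close to the array median. That is a weak signal, between 52.6 and 88.9 units before the logarithm. Its other probe, A_21_P0008419 (chr14:34596274-34596333, minus strand), stands 202852 bases away under the same gene name and was well above background on no array (0 of 4), at -2.52, -2.62, -4.38 and -3.71. The probes moved in opposite directions on replicate 3, where one was 0.36 above its own mean and the other 1.07 below. The EGLN3 gene value, with an SD of 0.40 and a 1.69-fold range, is the mean of this pair and so mixes a detected with an undetected probe. Over the detected probe alone the SD was 0.26, the range was 1.53-fold and replicate 3 was the highest array.

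Among the secreted factors, VEGFA encodes the main growth factor for blood vessels. Its junction-crossing probe, shown above, read 5.72, 5.77, 5.50 and 5.61, lowest on replicate 3. The other VEGFA probe, A_24_P12401 (chr6:43753511-43753570, plus strand), read 3.50, 3.46, 4.06 and 3.49, and replicate 3 stood apart there with a Dixon ratio of 0.93. Relative to their own means the probes differed by 0.58 log2 units on replicate 3. They were on the same side of their means on 1 of 4 arrays. The gene value of VEGFA, 4.64 ± 0.10 (SD, n = 4), had the smallest SD of the detected members and averages probes that deviate in opposite directions. ADM, which encodes the vasodilator peptide adrenomedullin, was read by A_23_P127948 (chr11:10328780-10328839, plus strand) at 8.64, 8.67, 9.05 and 8.58. Replicate 3 was 1.34-fold above the mean of the others, and the remaining arrays lay within an SD of 0.05. Its Dixon ratio of 0.81 was just below the critical value, and with outlying spots kept ADM passed it.

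**Figure D3:**
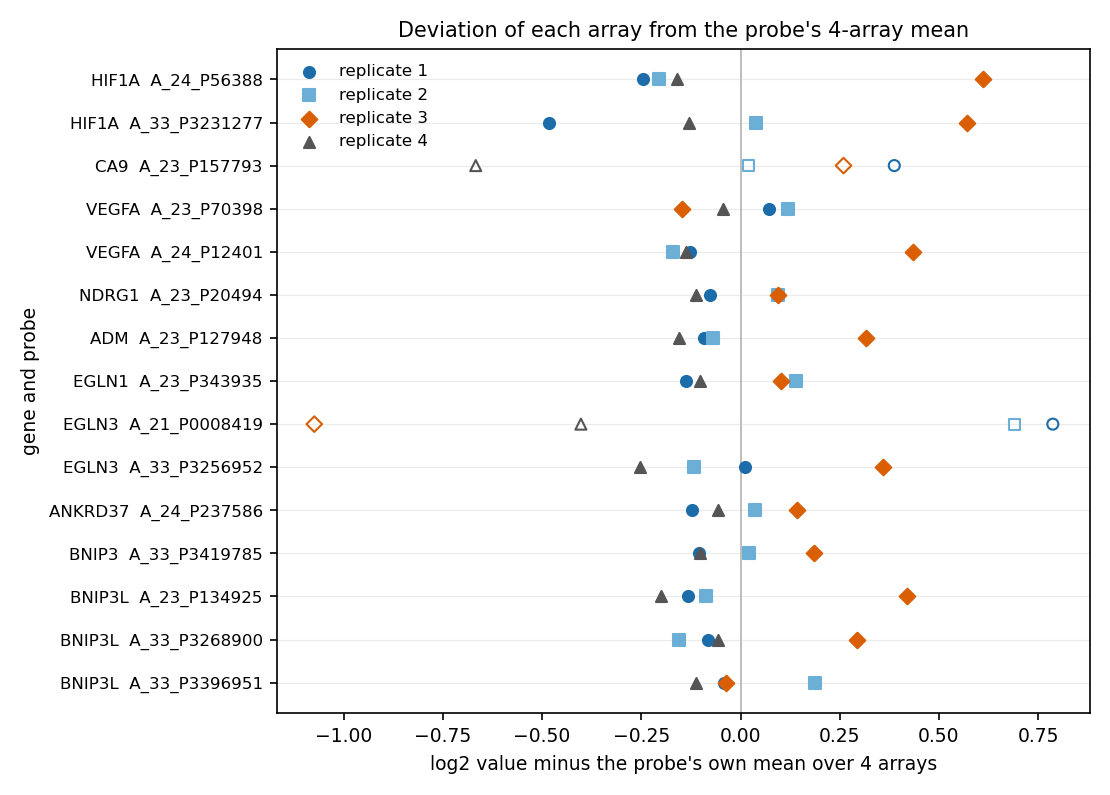
Deviation of each array from the probe's own mean over 4 arrays (x axis, log2 units) for the 15 member probes (rows). Filled and open symbols mark probes well above background on all 4 arrays and on none. Replicate 3 lies on the right for both HIF1A probes (0.61 and 0.57) and on opposite sides for the VEGFA pair (-0.15 and 0.43) and the EGLN3 pair (-1.07 and 0.36).

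CA9, often taken as the most oxygen-dependent HIF-1 target, was well above background on none of the 4 arrays (0 of 4). Its probe read 16.6, 11.7, 13.9 and 6.60 units of signal, or -2.21, -2.58, -2.34 and -3.27 relative to the array median. By the scanner's weaker flag, a signal above 0 and significantly above background, CA9 was detected and all 10 members were. So were 23750 of the 36337 gene names. The SD of 0.47 was the largest of the 10 members on this scale. After normexp and quantile normalization together it was 0.04, where the offset of 50 shrinks differences between signals this low. By its flags and signal CA9 was at or near the limit of detection, and its differences between arrays were not read.

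BNIP3 and BNIP3L encode related proteins of the outer mitochondrial membrane that act as receptors in mitophagy, a route that ends in the lysosome. BNIP3 (chr10:133781881-133781940, minus strand) read 7.98, 8.11, 8.27 and 7.98, a 1.22-fold range with an SD of 0.14. BNIP3L was read by 3 probes on the plus strand of chromosome 8. A_23_P134925 (chr8:26270286-26270345) gave 7.70, 7.75, 8.26 and 7.64, and A_33_P3268900 (chr8:26254988-26255047) gave 5.47, 5.40, 5.85 and 5.50, both highest on replicate 3. A_33_P3396951 (chr8:26252758-26252817) gave 4.85, 5.08, 4.85 and 4.78, with replicate 2 highest and replicate 3 within 0.04 of its mean. The BNIP3L gene value was 5.55 ± 0.20 (SD, n = 4), which on every array is the value of A_33_P3268900, the middle probe. The SD was 0.28 for A_23_P134925 and 0.13 for A_33_P3396951. Without replicate 3 the SD of the gene value was 0.05.

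NDRG1 and ANKRD37 varied little. NDRG1 (chr8:134249719-134249778, minus strand) read 10.52, 10.69, 10.69 and 10.48, a range of 1.15-fold and an SD of 0.11. Replicates 2 and 3 were within 0.01 of each other, and both lay above the others. ANKRD37 (chr4:186321293-186321352, plus strand) read 4.70, 4.86, 4.96 and 4.77, a range of 1.20-fold and an SD of 0.11. Of all detected genes, 13.1% had a smaller SD than NDRG1, 14.6% a smaller one than ANKRD37 and 10.1% a smaller one than VEGFA. BNIP3 and EGLN1 stood at 23.0% and 24.2%, BNIP3L and ADM near the middle at 47.7% and 52.3%, and EGLN3 at 84.4%. The VEGFA value averages probes that deviate in opposite directions, with SDs of 0.12 and 0.29.

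By array, the median deviation of the 9 detected members from their own means came to -0.09, 0.02, 0.14 and -0.10 on replicates 1 to 4. Over all detected genes it was -0.03, 0.03, 0.10 and -0.10. The genes whose pattern over the 4 arrays was most like that of HIF1A, by the root mean square difference of deviations from each gene's mean, were XPR1 (0.01), CPD (0.02) and TTC13 (0.02). The nearest member was ADM, at 0.19, with 2653 detected genes closer to HIF1A than it. BNIP3L followed at 0.21 and BNIP3 at 0.25, and EGLN3 was farthest at 0.64. That EGLN3 value averages in the probe that was not detected, which lay 1.07 below its own mean on replicate 3. The detected EGLN3 probe lay 0.36 above its mean there, and its likeness to HIF1A was not computed.

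The GC content of the probes moved with the deviations on single arrays. Over the 24633 probes detected on all arrays, the Spearman correlation of GC content with the deviation was 0.44, 0.10, -0.44 and 0.17 on replicates 1 to 4. Over the 13 detected member probes, which share those arrays and in part their genes, it was 0.44, 0.70, -0.69 and 0.39. The 2 member probes under 30% GC, HIF1A A_24_P56388 (25%) and VEGFA A_24_P12401 (20%), lay 0.61 and 0.43 above their means, where the median of 232 detected probes of that GC content was 0.34. The 5 member probes from 30% to under 40% lay between 0.14 and 0.57 above, with a median of 0.24 for all such probes. The 6 member probes from 40% to under 50% lay between -0.15 and 0.32, with a median of 0.10 for all. On replicate 3, 5 of the 13 member probes lay above the upper quartile of probes in their range of GC content: both HIF1A probes, the ADM probe and BNIP3L A_23_P134925 and A_33_P3268900. The part of GC content in these deviations was not tested.

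**Figure D4:**
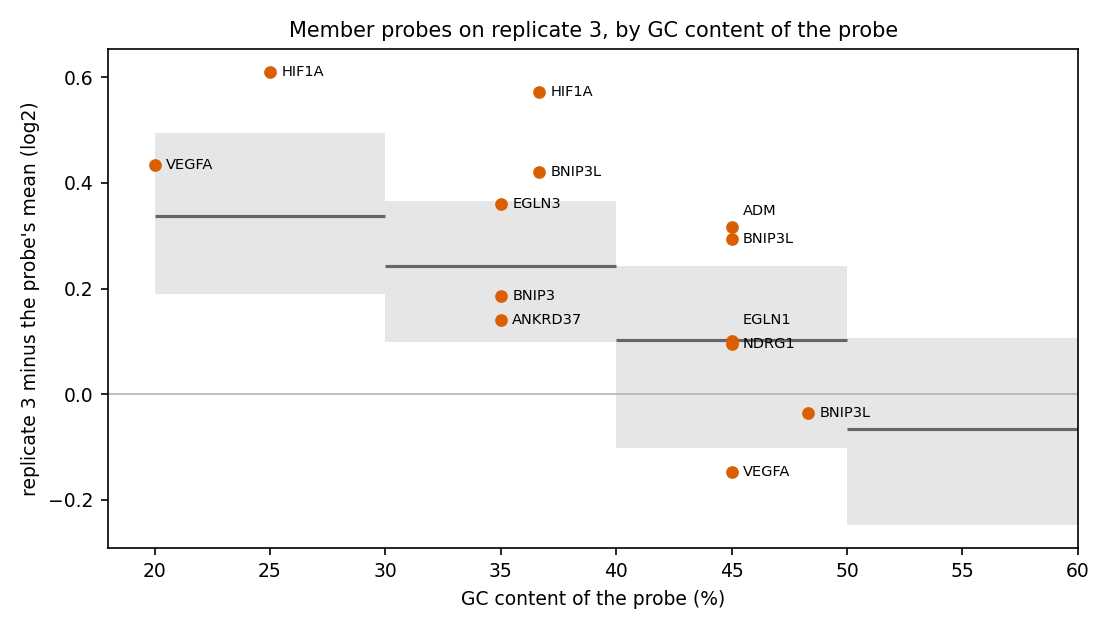
Deviation of replicate 3 from the probe's own mean (y axis, log2 units) against the GC content of the probe (x axis, %) for the 13 detected member probes (points). Grey boxes run from the lower to the upper quartile of all detected probes in bins of GC content, with the median as a line, and the last bin holds all probes of 50% and over. The bin medians go from 0.34 to -0.07 and 5 points, of HIF1A, BNIP3L and ADM, lie above their boxes.

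The other components of the oxygen-sensing machinery were described from a list of 16 genes. Of these 15 were detected, and 5 of them differed more than 1.4-fold between arrays. Their SDs had a median of 0.19. Without replicate 3, 0 of the 15 differed more than 1.4-fold, and over all detected genes the share was 21.6% in place of 46.4%. The largest SDs belonged to HIF3A (0.45), a HIF alpha subunit that can restrain the others, EP300 (0.40), a coactivator, and CUL2 (0.38), the scaffold of the VHL ligase. The smallest belonged to TCEB1 (0.13), the elongin C adaptor, HIF1AN (0.15), the asparagine hydroxylase that blocks coactivator binding, and CREBBP (0.16), a coactivator. One array stood apart for HIF3A, HIF1AN and RBX1, the RING subunit of the ligase. For HIF3A this was replicate 3, on the low side, and the value was that of 1 of its 3 probes. Its other detected probe was lowest on replicate 2. RBX1 read 7.39, 7.43, 7.77 and 7.39, high on replicate 3. TCEB2, elongin B, was not detected only because its single spot on replicate 3 was outlying; it read 4.01, 4.07 and 4.07 on the other arrays. VHL itself read 6.69, 6.87, 7.09 and 6.78, EPAS1, which encodes HIF-2 alpha, read 6.32, 6.69, 6.53 and 6.36, and ARNT read 0.68, 0.97, 1.17 and 0.71; these 3 genes fall outside the rule for named genes and were chosen after their values were seen.

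All 20 glycolytic HIF targets were detected, 9 of them differed more than 1.4-fold, and their median SD was 0.18. Without replicate 3, 4 of the 20 did, against 21.6% of all detected genes. With only probes detected on all 4 arrays, 7 of the 20 did, against 40.1%. The smallest SDs were those of the glycolytic enzymes GAPDH (0.06), ALDOA (0.09) and PGK1 (0.10). GAPDH read 11.51, 11.53, 11.65 and 11.52. The largest were those of SLC2A1 (1.92), the glucose transporter GLUT1, PFKFB3 (1.08), which makes the activator of phosphofructokinase, and SLC2A3 (0.36), the transporter GLUT3. For SLC2A1 and PFKFB3 the spread came with an outlying spot, which left 1 of 2 probes on replicate 1 for SLC2A1 and on replicate 3 for PFKFB3. The SLC2A1 probe concerned, A_23_P571, read 7.87, 8.17 and 7.96 on replicates 2 to 4 (SD 0.15). The SLC2A3 value averages a detected probe (SD 0.34) with A_23_P139669 (SD 0.53), which was well above background on no array.

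Of 34 other hypoxia targets 33 were on the array. The 26 detected ones had SDs with a median of 0.17, and 8 of them differed more than 1.4-fold. Without replicate 3, 3 of the 26 did, against 21.6% of all detected genes. The smallest SDs were those of FUT11 (0.06), a fucosyltransferase, ANGPTL4 (0.08), an inhibitor of lipoprotein lipase, and KDM4B (0.08), a histone demethylase. The FUT11 value averages probes that deviate in opposite directions, with SDs of 0.08 and 0.21. The largest were those of AK4 (1.05), a mitochondrial adenylate kinase, VLDLR (1.00), a lipoprotein receptor, and PLOD1 (0.63), a lysyl hydroxylase of collagen. In AK4 and VLDLR, 1 probe had no value on replicate 3. Both PLOD1 probes were lowest on replicate 3, at 6.89, 6.89, 6.14 and 6.54 and at 1.90, 2.21, 0.19 and 1.00. Replicate 3 also stood apart on the high side for P4HA1, a collagen prolyl hydroxylase, and BHLHE40, a transcriptional repressor. Like CA9, 5 of these targets were well above background on no array: EPO, the hormone erythropoietin, LOX, lysyl oxidase, NDUFA4L2, a mitochondrial protein, RORA, a nuclear receptor, and STC1, stanniocalcin. The remaining 2 undetected targets, CA12 and PPP1R3C, were well above background on 1 array each, and they are named outside the rule for named genes, after their values were seen.

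**Figure D5:**
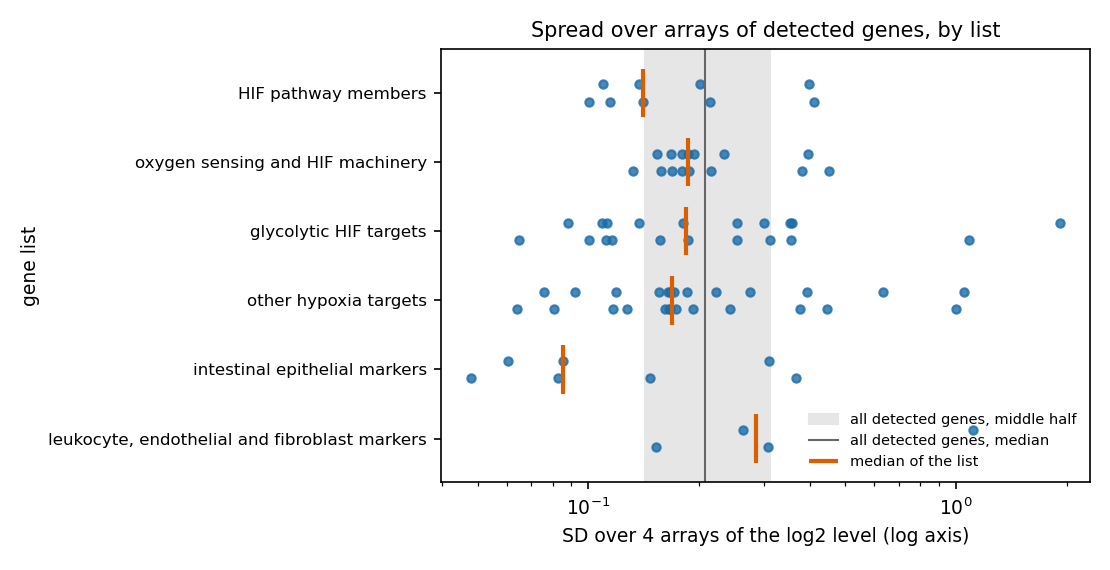
SD over the 4 arrays of the log2 level of each detected gene (x axis, log axis), by gene list (rows). Points are genes, orange lines are list medians, and the grey band runs from the lower to the upper quartile of all detected genes (0.14 to 0.31) around their median of 0.21. The median of the detected members, 0.14, lies at the lower edge of the band.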

How the data were processed

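Agilent single-colour arrays of 4 bafilomycin A1 cultures were used. The authors deposited scanner files of Feature Extraction 10.7.3.1, and their signals are linear intensity values, background-subtracted by the software and not normalized between arrays. One slide held all 4 arrays in a joint scan, which leaves no slide or scan batch to test. Precision is limited by the 4 arrays.

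Control spots and spots marked as outlying were removed before spots of the same probe were averaged. The log2 of positive signals was centred on the array median, as the methods of the study describe, and the median over a gene's probes was taken. A probe was detected on an array when over 50% of its spots were well above background. Named genes were all members and, per list, the 3 largest and 3 smallest SDs, genes with 1 array apart and up to 5 genes above background on no array, with exceptions said where they are named. The members and lists were chosen with earlier results of these data known, and the GC comparison after seeing them. Older symbols were looked up in RefSeq names, and 1 listed gene, MIR210HG, was not matched. The values of 1 marker gene are not reported here. No difference between groups was tested. The spread measures were tested on simulated data. Alternatives were the processed signal centred on its 75th percentile, normexp (offset 50) with quantile normalization in limma 3.58.1, other probe filters, and leaving out each replicate. Python 3.11.15, pandas 2.3.3 and scipy 1.17.1 were used.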

Additional observations from a re-analysis of the deposited data

Results flagged for a closer look

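Among the 9 detected members and 61 detected genes of the pathway lists (70 genes), 8 had 1 array that stood apart by Dixon's ratio, which chance does in about 5% of groups and which 8.48% of all detected genes did. In 6 of them the array was replicate 3, in 4 on the high side. P4HA1 lay at 7.69, BHLHE40 at 6.47, RBX1 at 7.77 and AK4 at 5.56 on replicate 3. HIF3A lay at -0.45 and PFKFB3 at -0.27 there, below the other arrays. HIF1AN lay at 1.74 on replicate 2, and SLC2A1 at 0.0309 on replicate 1. In SLC2A1, PFKFB3 and AK4 an outlying spot left the gene with 1 probe fewer on the array concerned, and with only the probes measured on all 4 arrays these 3 no longer stood apart. The other 5 had all their probes on every array, so that this filter left their values as they were. The probes of P4HA1, BHLHE40 and RBX1, high on replicate 3, had a GC content of 35%, 35% and 36.7%. HIF3A probe A_23_P142187, low there, had 53.3%. Over all probes detected on every array, GC content and the deviation on replicate 3 had a Spearman correlation of -0.44. The part of GC content in these values was not tested. For HIF3A the value on each array was that of 1 of its 3 probes, A_23_P142187. Its other detected probe, A_33_P3338152, read 7.72, 7.03, 7.53 and 7.75, lowest on replicate 2, and the remaining probe was well above background on no array. At the level of probes, replicate 3 stood apart for HIF1A A_24_P56388, at 5.90, and for VEGFA A_24_P12401, at 4.06.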

How the results depend on the processing

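No paired analysis was possible because only the bafilomycin A1 group had values. The number of members over 1.4-fold, 2, was 1 after normexp and quantile normalization and 4 with centring over all probes, dim ones included, and it ranged from 1, without replicate 3, to 2 with 1 replicate left out; without replicate 3 the share of all detected genes over 1.4-fold was 21.6% in place of 46.4%. The member median SD, 0.14, was 0.0946 for the processed signal centred on its 75th percentile and 0.0823 after quantile normalization. With 1 replicate left out it ranged from 0.0798, without replicate 3, to 0.167, without replicate 2. The median SD of all detected genes, 0.21, moved too. It was 0.18 for the processed signal, 0.11 after quantile normalization, 0.15 without replicate 3 and 0.21 without replicate 2. With outlying spots kept, 1 member (ADM) had 1 array apart. Of the oxygen-sensing machinery, 5 genes were over 1.4-fold, 3 for the processed signal, and 0 (without replicate 3) to 5 with 1 replicate left out. For glycolytic targets this range was 4 to 8 against 9. For other hypoxia targets it was 3 to 8 against 8, and 5 after quantile normalization. The share of all detected genes over 1.4-fold fell as well, from 46.4% to 39.1% for the processed signal and 15.5% after quantile normalization. It was 37.7%, 39.0% and 39.2% with replicate 1, 2 or 4 left out. The excess of HIF1A on replicate 3, 0.79, was 0.54 after quantile normalization and 0.70 to 0.84 with another replicate left out. These alternatives on replicate 3 were chosen after seeing the data, and under them 5 to 8 members were highest there. The share of all detected genes moved too. It was 37.5% after quantile normalization, with 5 members, and 52.5% with centring over all probes, with 8. The members detected numbered 8 to 10. They were 8 when every probe of a gene had to pass on all 4 arrays, with 15764 of the 36337 gene names, and 10 by the weaker flag, with 23750. Of 99 values of a member's SD under the alternatives 28 moved beyond their own spread, and of 99 levels 14 did, after the shift of all detected genes, -2.39 for the processed signal, 1.09 for centring on all probes and -0.20 for quantile normalization, was taken off. Causes were not tested.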
